A study of Homo sapiens with 4 samples.

Results

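Respiratory complex I is the NADH dehydrogenase of the mitochondrial inner membrane, and most of its subunits carry gene symbols that begin with NDUF. The genes described here were all symbols with that prefix in the deposited expression table, except NDUFAB1, the mitochondrial acyl carrier protein, which was left out of the group. This gave 51 of 16504 gene symbols, made up of 36 complex I subunits, 8 NDUFAF assembly factors and 7 other symbols. Of the 51, 46 passed the filter on low values, including all 36 subunits and all 8 assembly factors. Levels are given as FPKM, a fragment count divided by exon length and by library size, so they are on a scale per transcript length.

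RNA-seq was carried out on 4 libraries labelled as NB4, a cell line from acute promyelocytic leukemia, and the comparison asks which transcripts differ when CEBPG is depleted. The labels form a pair of groups, each with 2 libraries numbered 1 and 2: cells with CEBPG present, which carried the control short hairpin (NC), and cells labelled CEBPG3, in which CEBPG, a bZIP transcription factor, was depleted by a short hairpin. In the study methods, hairpins were delivered by a lentiviral vector with puromycin resistance, so the control cells also went through infection. The number 3 was read as the third CEBPG hairpin of the study, which is an assumption, and the data then hold 1 hairpin sequence only. The sources used here do not say whether libraries 1 and 2 of a group came from separate cultures, so all p-values measure the spread between these libraries, which may be technical.

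Complex I passes electrons from NADH to ubiquinone and pumps protons. Its matrix arm holds the N module, where NADH is oxidised, and the Q module, where ubiquinone is reduced, while the membrane arm pumps protons. A catalytic core conserved from bacteria is surrounded by supernumerary subunits, part of the membrane core is encoded by mitochondrial DNA, and assembly factors help to build the complex but are absent from the finished enzyme. The deposited data held no symbol searched for the mitochondrially encoded subunits, so those subunits are not analysed here.

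CEBPG itself (chr19:33373685-33382686, plus strand, GENCODE release 44 on hg38) was read first as a check of the labels. It stood at 17.1 and 18.1 FPKM in controls 1 and 2 and at 6.91 and 7.96 FPKM in knockdowns 1 and 2 (log2 fold change −1.14, SE 0.08, limma adjusted p = 0.000836). The FPKM columns summed to between 345340 and 366139, and 10875 to 10964 genes reached 1 FPKM in a library. The table holds no counts, so sequencing depth is unknown. Of 8 myeloid markers, 3 or 4 reached 1 FPKM in a library and their sum was 42.1 to 44.7 FPKM, and the granule protein genes PRTN3 (at most 0.188 FPKM) and AZU1 (at most 0.57 FPKM) were near 0 but not at 0. The 3 that passed the filter were LYZ (15 to 20.1 FPKM), SPI1 (15.2 to 17.2 FPKM) and CD33 (4.31 to 9.77 FPKM). All 10 erythroid markers reached 1 FPKM in each library, with a sum of 7.60e+03 to 8.04e+03 FPKM in the control and 8.65e+03 to 9.22e+03 FPKM in the knockdown libraries. High globin transcripts beside near-absent granule protein transcripts go against the labelled cell type, while LYZ, SPI1 and CD33 were present in each library. Of the erythroid markers, the globin genes HBG1 and HBG2 were called higher and ALAS2 lower in the knockdown libraries, and its part in the results on complex I was not tested. In such bulk samples, fewer cells of one kind and less RNA per cell cannot be told apart.

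Complex I subunit transcripts were abundant in all 4 libraries. The mean level of a subunit ran from 7.40 FPKM for NDUFA3, a small membrane arm subunit, to 393 FPKM for NDUFB9, a distal membrane arm subunit. The median over the 36 subunits was 80.7 FPKM, against 9.86 FPKM over the 10968 genes tested. Subunits of one complex, needed in equal numbers in the finished enzyme, thus differed widely in transcript level within each module. In the N module, for example, NDUFV2 had a mean of 188 FPKM and NDUFS1 of 26.7 FPKM, in the Q module NDUFS7 had 110.8 FPKM and NDUFA6 13.7 FPKM, and in the proximal membrane arm NDUFA13 had 282 FPKM. The assembly factors lay lower, with a median of 15.2 FPKM and a range from 6.59 FPKM for NDUFAF5 to 93.0 FPKM for NDUFAF8.

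**Figure D1:**
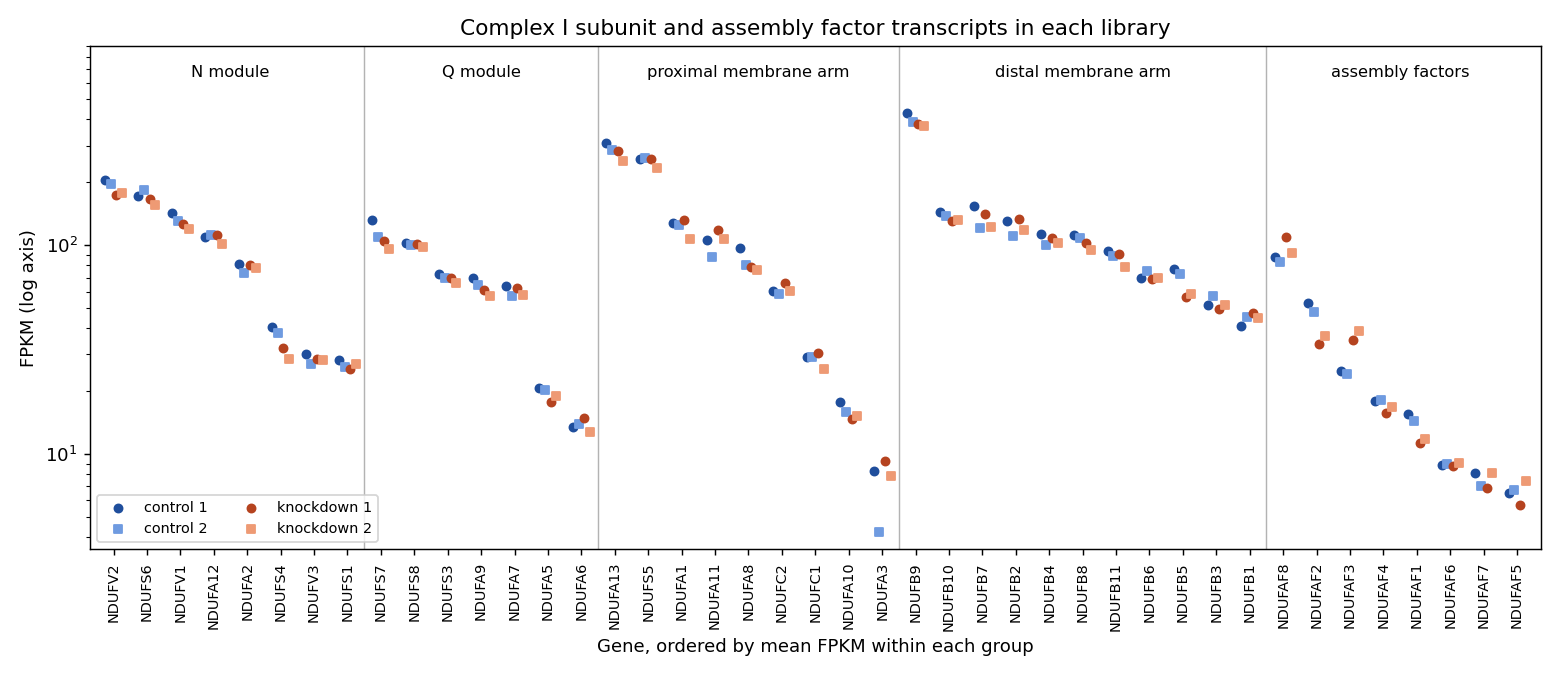
FPKM on a log axis of 35 of the 36 complex I subunits, in 4 modules, and of 8 assembly factors, with 1 point per library (circles for replicate 1, squares for replicate 2, blue for control and red for knockdown). Within a module the subunits spread over a wide range of levels, from 7.40 FPKM for NDUFA3 to 393 FPKM for NDUFB9 on average, while the 4 libraries of most genes lie close together.

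In the knockdown libraries, most complex I subunits lay slightly lower, and how many of them passed the test turned on the scaling. Of the 36 subunits, 2 fell at an adjusted p under 0.05 (limma on log2(FPKM + 1), adjusted over all tested genes): NDUFB5 and NDUFS4. That is 5.56% of the subunits, against 9.99% of all genes tested. The order was reversed with columns scaled to one sum (27.8% against 13%) but not with median-ratio scaling (11.1% against 12.6%). None rose, where 10.9% of all genes did, and the 7 subunits with an unadjusted p under 0.05 were all below 0. The 95% interval included 0 for 29 subunits (80.6%, against 63% of all genes). The direction was nevertheless shared: 29 of 36 log2 fold changes (80.6%) were below 0, against 47.3% of all genes, and the median was −0.08 against 0.015 over all genes. For 16 subunits (44.4%, against 30.5% of all genes) the knockdown libraries were both lower than either control, and for 2, NDUFA11 and NDUFC2, both were higher (5.56%, against 34.3%). Members of one complex are not independent of each other, so these counts are descriptions.

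Summed over the 36 subunits, transcripts came to 3769 and 3526 FPKM in the control libraries and to 3526 and 3297 FPKM in the knockdown libraries. As a share of all FPKM in the library this was 1.03% and 1.02% in the controls and 0.963% and 0.926% in the knockdowns. The summed level of control 2 equalled that of knockdown 1 to 4 digits, whereas the shares did not overlap. The libraries numbered 1 carried more of these transcripts than those numbered 2 in both groups: control 1 was above control 2 for 29 of 36 subunits (67.1% of all genes) and knockdown 1 above knockdown 2 for 28 of 36 (48.9% of all genes). The median gap between replicates was 0.09 in the control and 0.10 in the knockdown group on the log2 scale, larger than the median difference of −0.08 between the groups.

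The count of called subunits moved with the processing. It was 2 as stated and 4 with median-ratio scaling (11.1%, against 12.6% of all genes called lower in that fit). With columns scaled to one sum it was 10 (27.8%, against 13% of all genes), and after a GC and length trend was removed, an alternative chosen after seeing the data, it was 9 (25%, against 16.3%). In the one-sum and GC fits the share called was thus higher among subunits than among all genes, opposite to the order as stated. The count ran from 0 without knockdown 2 and 1 without knockdown 1 to 4 without control 2, whereas the median of the subunits was below 0 in each alternative tried. A fit without 1 library leaves a group of 1, which limma then takes to vary like the other group, and this holds for every such value given here.

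The intervals also bound how large the difference between these libraries was for most subunits. For 33 of 36 subunits the 95% interval of the log2 fold change lay within ±0.5, the exceptions being NDUFA3, NDUFB5 and NDUFS4, against 76.7% of all genes. The absolute log2 fold change was under 0.2 for 31 of 36 subunits (86.1%), against 63.1% of all genes, and its median was 0.10 against 0.15. These shares were not matched for level, and the subunits had a median of 80.7 FPKM against 9.86 FPKM over all genes.

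**Figure D2:**
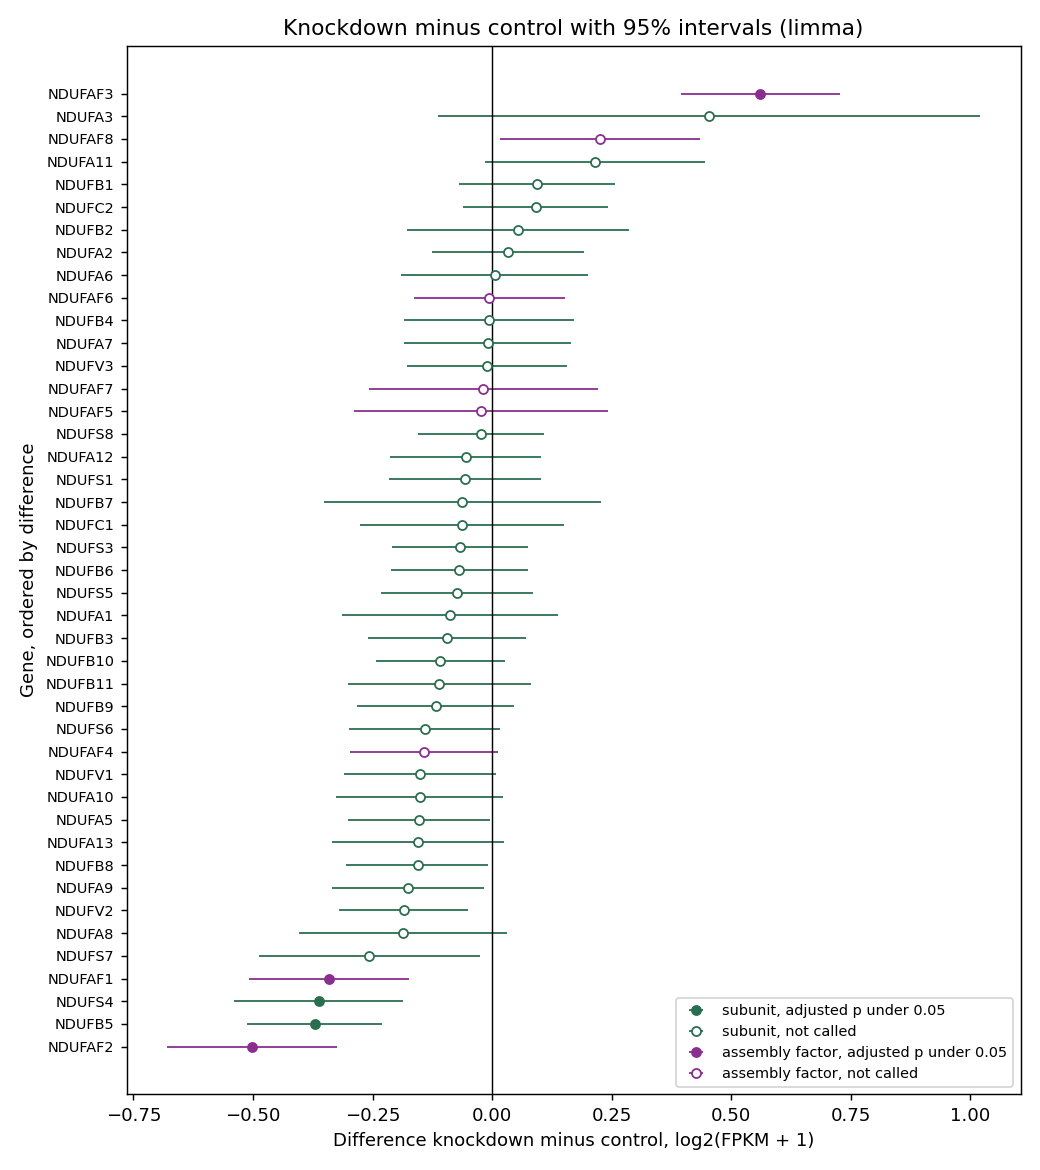
Difference of knockdown minus control in log2(FPKM + 1) for 35 of the 36 subunits (green) and 8 assembly factors (purple), ordered by size, with 95% intervals from limma. Filled points have an adjusted p under 0.05, and the 5 of them are NDUFAF2, NDUFB5, NDUFS4 and NDUFAF1 below 0 and NDUFAF3 above 0.

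By position in the enzyme, the medians lay below 0 in both arms. The 16 matrix arm subunits had a median log2 fold change of −0.10 with 14 below 0, and the 20 membrane arm subunits had −0.08 with 15 below 0. In the N module, 7 of 8 subunits were below 0 with a median of −0.10 and 1 was called lower, NDUFS4 (12.5%, against 9.99% of all genes). In the Q module 7 of 8 were below 0 (median −0.11) and none passed the test. The 9 proximal membrane arm subunits had a median of −0.07, with none called, and the 11 distal ones a median of −0.09 with 1 called lower, NDUFB5 (9.09%). With 1 call among 8 or 11 genes, these shares are near that of all genes.

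The 7 catalytic core subunits encoded in the nucleus were all below 0, with a median log2 fold change of −0.15, and none passed the test. Of these, 5 hold iron-sulfur clusters, the chain along which electrons run to ubiquinone. NDUFV2, which carries a cluster in the N module, stood at 204.5 and 196 FPKM in controls 1 and 2 and at 174.6 and 177.4 FPKM in knockdowns 1 and 2 (log2 fold change −0.18, SE 0.06, limma adjusted p = 0.0605). NDUFV1, which binds the flavin that accepts electrons from NADH, stood at 142.6 and 130.6 FPKM against 126.3 and 119.5 FPKM (−0.15, SE 0.07, limma adjusted p = 0.155). The knockdown libraries were the lower for both genes, without overlap, but neither passed the test as stated. Both were called lower by limma with columns scaled to one sum (adjusted p = 0.0108 for NDUFV2 and 0.0234 for NDUFV1) and after the GC and length trend was removed (0.0134 and 0.00712), and NDUFV2 also with median-ratio scaling (0.0174).

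NDUFS7, which holds the last cluster before ubiquinone, had 132.4 and 109.5 FPKM in the control and 105.2 and 96.2 FPKM in the knockdown libraries (−0.26, SE 0.10, limma adjusted p = 0.106). For NDUFS7 the controls differed from each other by more than control 2 differed from knockdown 1, and its value turned on them: it was −0.12 without control 1 (limma adjusted p = 0.296) and −0.39, called lower, without control 2 (limma adjusted p = 0.0195). NDUFS7 was also called with columns scaled to one sum (limma adjusted p = 0.0242) and after the GC and length trend was removed (0.0179).

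Other core subunits differed by less. NDUFS1, the largest cluster-bearing subunit, had 28.3 and 26.2 FPKM in the control and 25.5 and 26.8 FPKM in the knockdown libraries, and NDUFS3, part of the Q module, had 72.8 and 69.3 against 69.5 and 66.1 FPKM. NDUFS8, another cluster subunit of the Q module, had 102.3 and 100.2 against 101.3 and 98.0 FPKM. The groups overlapped for all 3 genes, and the log2 fold changes were −0.06, −0.07 and −0.02. For NDUFS8 the 95% interval ran from −0.16 to 0.11.

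NDUFB5 and NDUFS4 were the subunits called lower in the reported fit, while other settings called more or fewer. NDUFB5 (chr3:179604690-179627647, plus strand), a supernumerary subunit of the distal membrane arm, stood at 76.7 and 72.8 FPKM in the control and 56.4 and 58.7 FPKM in the knockdown libraries. It fell by 0.37 on the log2 scale (SE 0.06, 95% interval −0.51 to −0.23, limma adjusted p = 0.00841), to 77.0% of the control mean. NDUFS4 (chr5:53560633-53683338, plus strand) sits where the N module meets the Q module, and its loss causes Leigh syndrome. Its level was 40.5 and 38.0 FPKM in the control and 32.1 and 28.6 FPKM in the knockdown libraries, and it fell by 0.36 (SE 0.07, 95% interval −0.54 to −0.19, limma adjusted p = 0.0184). Neither gene's groups overlapped. In limma, NDUFB5 was not called without knockdown 1 (adjusted p = 0.0749) or knockdown 2 (0.0515), nor NDUFS4 without knockdown 2 (0.107) or with no filter (0.071).

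Some subunits lay above 0, and none of these passed the test. NDUFA3 had 8.26 and 4.24 FPKM in the control and 9.23 and 7.89 FPKM in the knockdown libraries, so its log2 fold change of 0.45 (SE 0.24, limma adjusted p = 0.215) rested on control 2, which was far below the other 3 libraries. NDUFA11, a membrane arm subunit near the contact with complex III in supercomplexes, had 105.9 and 88.0 FPKM against 118 and 106.8 FPKM (0.21, SE 0.10, limma adjusted p = 0.159). Without control 1 both were called higher by limma, NDUFA3 with 0.86 (adjusted p = 0.00618) and NDUFA11 with 0.35 (adjusted p = 0.0268), while without control 2 they stood at 0.04 (limma adjusted p = 0.821) and 0.08 (0.499). NDUFB1, of the distal membrane arm, had 41.1 and 45.1 FPKM against 47.4 and 44.7 FPKM, and the groups overlapped.

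A pair of subunits with an LYR motif, NDUFA6 and NDUFB9, dock the acyl carrier protein NDUFAB1 on the complex. NDUFAB1 is not among the 51 genes, and it stood at 116.5 and 118.5 FPKM in the control and 40.6 and 40.1 FPKM in the knockdown libraries (−1.52, limma adjusted p = 0.000164). Neither LYR subunit passed the test. NDUFA6 had 13.5 and 13.9 FPKM against 14.8 and 12.8 FPKM (0.01, 95% interval −0.19 to 0.20), with overlapping groups. NDUFB9 had 430.7 and 388 FPKM in the control and 379.2 and 373.9 FPKM in the knockdown libraries (−0.12, 95% interval −0.28 to 0.05), and limma called it lower with columns scaled to one sum (adjusted p = 0.0323).

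A set of 4 subunits carries twin CX9C motifs, which are oxidised in the intermembrane space by the import receptor CHCHD4. CHCHD4 itself stood at 18.1 and 16.9 FPKM in the control and 7.28 and 5.41 FPKM in the knockdown libraries (−1.34, limma adjusted p = 0.00146). None of the 4 subunits was called, and their median log2 fold change was −0.09. NDUFA8 had 96.9 and 80.1 FPKM against 78.4 and 76.2 FPKM, and NDUFB10 had 144.7 and 138.3 against 130.9 and 131.6 FPKM, both without overlap. NDUFS5 had 258.5 and 261.6 FPKM against 259.8 and 234.9 FPKM, and NDUFB7 had 154.3 and 120.9 against 140.4 and 121.8 FPKM, both with overlapping groups. NDUFA8 also turned on the controls, at −0.32 without control 2, called lower (limma adjusted p = 0.021), and at −0.05 without control 1 (limma adjusted p = 0.606). After the GC and length trend was removed, limma called NDUFA8 (adjusted p = 0.0479) and NDUFB10 (0.0238) lower.

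Of the 8 NDUFAF assembly factors, 2 were lower (25%, against 9.99% of all genes), 1 was higher (12.5%, against 10.9%) and 5 were not called. Over all genes 20.9% were called in either direction. NDUFAF2 (chr5:60945177-61154531, plus strand), a paralog of the subunit NDUFA12 that acts late, when the N module is joined, had the lowest fold change of the 46 tested genes. It stood at 52.9 and 47.7 FPKM in controls 1 and 2 and 33.7 and 36.6 FPKM in knockdowns 1 and 2, or 50.3 ± 3.69 against 35.2 ± 2.04 (SD, n = 2). Its log2 fold change was −0.50 (SE 0.07, 95% interval −0.68 to −0.32, limma adjusted p = 0.00641). NDUFA12 itself had 109.3 and 111.7 FPKM against 111.7 and 101.2 FPKM, with overlapping groups.

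NDUFAF1 (chr15:41387218-41409403, minus strand) belongs to the MCIA complex, which builds part of the membrane arm. It had 15.6 and 14.3 FPKM in the control and 11.3 and 11.8 FPKM in the knockdown libraries, and fell by 0.34 (SE 0.07, limma adjusted p = 0.0186). The groups did not overlap, but limma no longer called NDUFAF1 without control 1 (adjusted p = 0.0552), knockdown 1 (0.104) or knockdown 2 (0.0667), or with no filter (0.0628).

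NDUFAF3 (chr3:49020459-49023495, plus strand), which acts with NDUFAF4 on the Q module, rose. It stood at 25.1 and 24.3 FPKM in the control and 35.0 and 38.9 FPKM in the knockdown libraries, or 24.7 ± 0.593 against 36.9 ± 2.75 (SD, n = 2). The log2 fold change was 0.56 (SE 0.07, 95% interval 0.39 to 0.73, limma adjusted p = 0.00394), the highest of the 46 tested. Its partner NDUFAF4 had 17.9 and 18.1 FPKM against 15.7 and 16.9 FPKM (−0.14, SE 0.07, limma adjusted p = 0.165), so the pair lay on opposite sides of 0. NDUFAF2 and NDUFAF3 kept their calls in every gene-level alternative, leave-outs included, with limma adjusted p of at most 0.0477 and 0.0342.

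The remaining assembly factors did not pass the test. NDUFAF8, which stabilises NDUFAF5, had 87.7 and 83.4 FPKM in the control and 109.3 and 91.8 FPKM in the knockdown libraries (0.23, SE 0.09, limma adjusted p = 0.112). NDUFAF5, which hydroxylates NDUFS7, had 6.51 and 6.74 FPKM against 5.72 and 7.38 FPKM. Its knockdown libraries lay on either side of the controls. NDUFAF7, a methyltransferase, had 8.14 and 7.05 FPKM against 6.88 and 8.10 FPKM, and NDUFAF6 had 8.86 and 8.97 against 8.74 and 9.01 FPKM, each with overlapping groups.

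Sequence upstream of the start is shown for NDUFAF2 and NDUFAF3, the called genes with the lowest and highest values, and for NDUFS4, the gene with a CEBP motif match among the 4 called genes that were searched (NDUFB5 was not). The bases are from RefSeq on GRCh38.p14, 5′ to 3′ on the strand of the gene, and end 51 bases before the RefSeq start. Capitals mark motif matches. The NDUFAF2 stretch (chr5:60945074-60945154) leaves out bases that overlap exons of ERCC8, its divergent neighbour, and holds a pair of CCAAT matches, 1 on each strand. The NDUFS4 stretch (chr5:53560389-53560588) holds a match to TTGCNNAA on the opposite strand, at bases −70 to −63. The NDUFAF3 stretch (chr3:49020235-49020401) holds no match to the 8 motifs searched.
NDUFAF2: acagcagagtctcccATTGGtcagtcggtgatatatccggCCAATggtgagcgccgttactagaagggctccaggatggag
NDUFS4: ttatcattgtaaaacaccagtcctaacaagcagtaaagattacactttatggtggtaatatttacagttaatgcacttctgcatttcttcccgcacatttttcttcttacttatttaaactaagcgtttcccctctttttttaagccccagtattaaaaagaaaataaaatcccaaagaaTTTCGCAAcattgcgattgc
NDUFAF3: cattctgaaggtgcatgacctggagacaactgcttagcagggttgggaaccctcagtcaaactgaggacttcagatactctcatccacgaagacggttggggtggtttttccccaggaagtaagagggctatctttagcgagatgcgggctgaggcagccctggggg

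Motifs were searched on both strands in the 250 bases before the start for the 42 of 51 genes with a RefSeq entry, 31 of them subunits and 7 assembly factors. The CEBP motif TTGCNNAA was found in 2 of 31 subunit promoters (6.45%, NDUFB11 and NDUFS4) and in 5.72% of the promoters of all tested genes. The composite CEBP-ATF motif TGATGNAA was found in 1 (NDUFS6), or 3.23%, against 1.2%. The NRF1 core GCATGCGC was found in 4 (NDUFA6, NDUFB4, NDUFS6 and NDUFS7), or 12.9%, against 5.5%. The CRE TGACGTCA was found in 2 (6.45% against 3.26%), the ETS motif CCGGAAGT in 2 (6.45% against 8.4%), and CCAAT in 8 (25.8% against 36.1%). The ERR motif TCAAGGTCA and the YY1 motif AAGATGGCG matched none of the 31. Among the 7 assembly factor promoters, the only gene with any match was NDUFAF2. A match is a run of letters and not a shown binding site, and with so few promoters these shares are descriptions.

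Complex I assembly also depends on factors without the NDUF prefix, and the called ones lay on both sides of 0. Of 14 tested, 2 fell (14.3%, against 9.99% of all genes), 2 rose (14.3%, against 10.9%), and the median log2 fold change was near 0. ECSIT, a partner of NDUFAF1 in the MCIA complex, had 29.1 and 26.5 FPKM in the control and 20.5 and 17.8 FPKM in the knockdown libraries (−0.52, limma adjusted p = 0.00894). ACAD9, another MCIA member, had 19.7 and 17.8 FPKM against 23.4 and 22.8 FPKM and rose (0.29, limma adjusted p = 0.0307). Among the called MCIA genes, NDUFAF1 and ECSIT were thus lower and ACAD9 higher. TMEM70, which aids assembly of complex I and of ATP synthase, rose from 19.4 and 18.6 FPKM to 27.2 and 25.3 FPKM (0.45, limma adjusted p = 0.00613). DMAC1, a factor for the distal membrane arm, fell from 11.1 and 10.1 FPKM to 8.47 and 8.10 FPKM (−0.32, limma adjusted p = 0.0283).

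Nuclear-encoded subunits of complexes II to V also lay mostly below 0. Their median log2 fold change over 38 tested genes was −0.10, 28 lay below 0 (73.7%, against 47.3% of all genes), and 5 were called lower (13.2%, against 9.99%) and none higher (against 10.9%). Both knockdown libraries were below both controls for 20 of them (52.6%, against 30.5%). The lowest was SDHD, a membrane anchor of complex II, at 91.8 and 89.0 FPKM in the control and 40.5 and 39.1 FPKM in the knockdown libraries (−1.16, limma adjusted p = 0.00035). The others were UQCRH of complex III, COX4I1 and COX7B of complex IV and ATP5MF of ATP synthase, with log2 fold changes from −0.29 to −0.25. No test of complex I against the other complexes was made, and no shift particular to complex I is claimed.

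**Figure D3:**
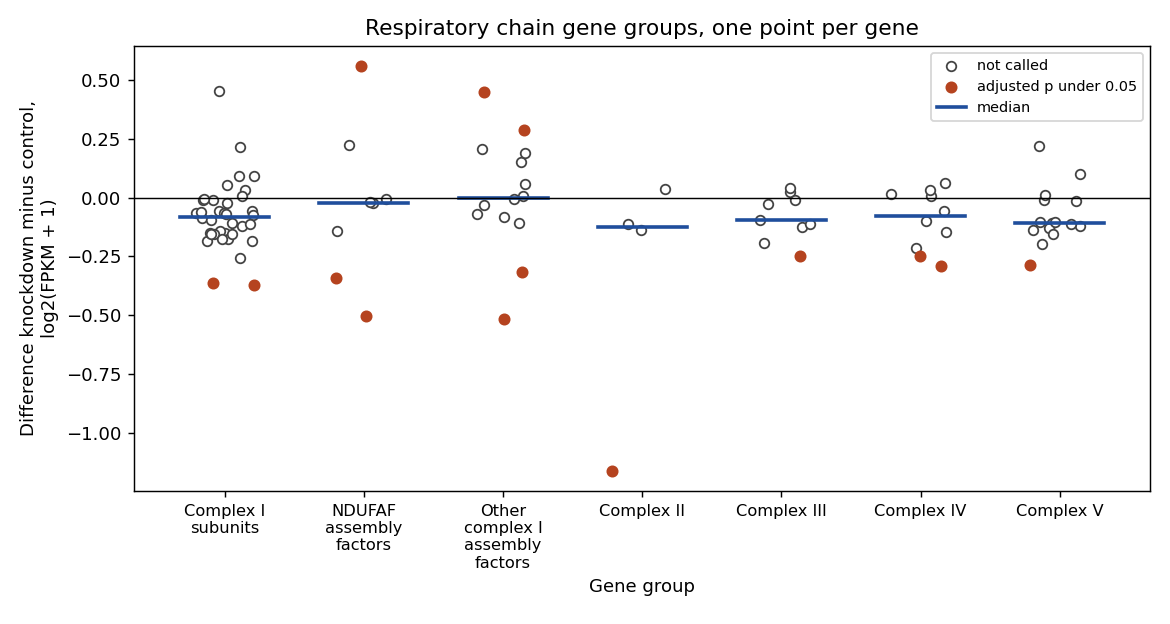
Difference of knockdown minus control in log2(FPKM + 1), 1 point per tested gene, for complex I subunits, the NDUFAF assembly factors, other complex I assembly factors and complexes II to V, with the median of each group as a blue line and called genes filled. The group medians lie between −0.12 for complex II and near 0 for the other complex I assembly factors, and SDHD stands lowest at −1.16.

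The table lists transcripts separately, and 29 of the 51 genes had only 1. In a fit over 15795 transcripts, 25 (0.158%) had an adjusted p under 0.05, none of them among the 69 tested transcripts of the NDUF genes. Of these 69, 12 had an unadjusted p under 0.05 (17.4%, against 20.3% of all transcripts). The main transcripts of the 5 called genes were not called in that fit, with limma adjusted p between 0.0919 (NDUFAF3) and 0.177 (NDUFAF1).

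NDUFB8, a distal membrane arm subunit, had the clearest difference between its transcripts. As a gene it stood at 111.6 and 108.6 FPKM in the control and 102.7 and 94.9 FPKM in the knockdown libraries (−0.16, SE 0.06, limma adjusted p = 0.119). Its main RefSeq transcript NM_005004 made up 91.1% and 82.2% of that in the controls and 63.4% and 61.2% in the knockdowns. In FPKM this transcript went from 101.7 and 89.2 to 65.1 and 58.0 (−0.62, limma adjusted p = 0.101 over all transcripts). NM_001284367 stood at 7.21 and 7.36 FPKM in the controls and 14.4 and 18.7 FPKM in the knockdowns (1.07, limma adjusted p = 0.0873), and NM_001284368 at 2.73 and 12.03 against 23.2 and 18.1 FPKM. The groups did not overlap for any of the 3 transcripts, none passed the adjusted threshold, and NDUFB8 was chosen here after its values were seen. Lack of overlap was common: over all genes tested, both knockdown libraries were below both controls for 30.5% and above both for 34.3%. The share over all transcripts was not computed. The division of reads between transcripts was estimated by the authors' software, and 675 exonic bases of NDUFB8 (33.8%) are shared with a readthrough gene on the same strand and 325 (16.3%) with HIF1AN on the opposite strand.

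**Figure D4:**
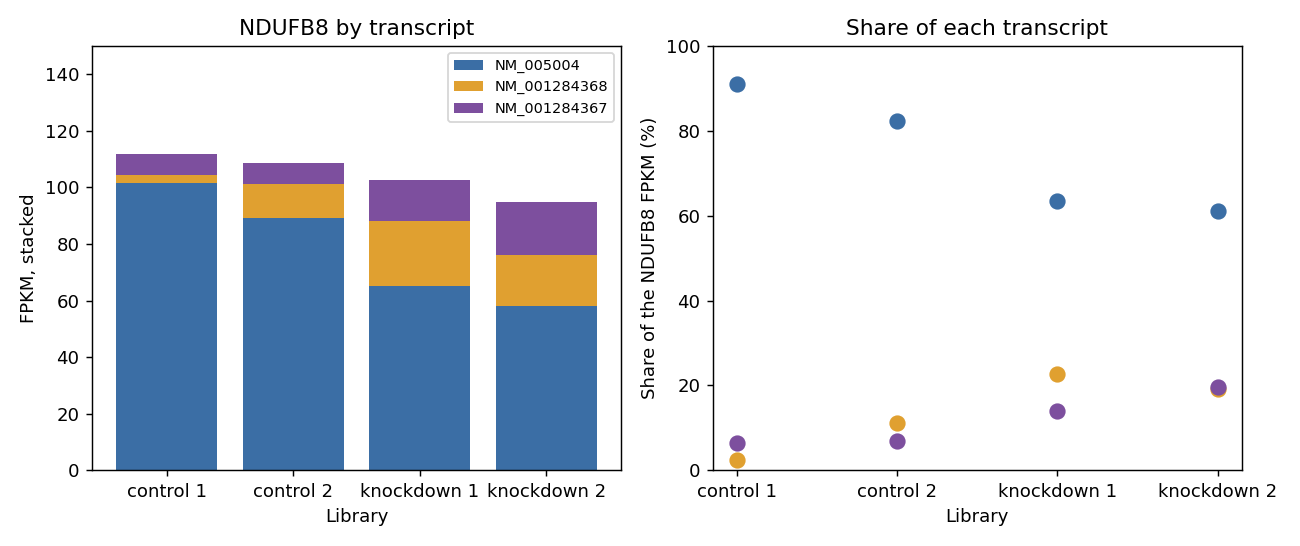
Left, FPKM of the 3 listed NDUFB8 transcripts stacked for each of the 4 libraries; right, the share of each transcript in the NDUFB8 total, in percent. The share of NM_005004 is 91.1% and 82.2% in the control and 63.4% and 61.2% in the knockdown libraries, and the other transcripts fill the difference.

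Overlapping genes also bear on the called genes, because the sources used here do not say that reads were counted by strand. NDUFAF3 shares 248 exonic bases (14.4%) with DALRD3 on the opposite strand. DALRD3 stood at 5.47 and 4.45 FPKM in the control and 6.40 and 5.13 FPKM in the knockdown libraries, below NDUFAF3. The part of DALRD3 in the NDUFAF3 value was not tested. NDUFAF1 shares 174 bases (4.36%) with RTF1 on the opposite strand. RTF1 stood at 13.7 and 13.4 FPKM in the control and 11.2 and 12.7 FPKM in the knockdown libraries, near the level of NDUFAF1 and also lower in the knockdowns, and its part in the NDUFAF1 value was not tested. NDUFB5 shares 426 bases (7.26%) with a coding gene on the same strand. NDUFS4 and NDUFAF2 share none.

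The 7 remaining NDUF symbols were not subunits or assembly factors of complex I. NDUFA4, now counted as a subunit of complex IV, had 63.9 and 60.8 FPKM in the control and 58.0 and 58.3 FPKM in the knockdown libraries (−0.10, SE 0.06, limma adjusted p = 0.263). Its paralog NDUFA4L2 stayed under the filter, at 0.332 and 0.286 against 0.201 and 0.096 FPKM. The antisense transcript NDUFV2-AS1 had 0.972 and 1.01 FPKM against 1.41 and 0.704 FPKM and passed the filter only narrowly. NDUFB2-AS1, NDUFA6-DT, the readthrough NDUFC2-KCTD14 and the pseudogene NDUFAF4P1 were all under 1 FPKM in each library, with NDUFB2-AS1 highest at 0.723 FPKM and NDUFC2-KCTD14 listed at 0 in knockdown 1.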

How the data were processed

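Per the labels, total RNA went into Illumina TruSeq libraries. According to the study methods and the submitters' processing notes, filtered reads were mapped with HISAT2 2.0.5 to hg38, and the authors deposited FPKM values per RefSeq transcript for 4 libraries. The quantifier, annotation release and strand setting are not given in the sources used here.

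Of 29265 rows, 183 held no value and 164 had no symbol (0.25% of FPKM). The others were summed per symbol to 16504 genes. Of these, 10968 averaged 1 FPKM or more over the libraries and were tested on log2(FPKM + 1), which understates changes of low genes, with limma 3.58.1 under R 4.3.3 (empirical Bayes with a mean trend, 2-sided, Benjamini-Hochberg over all tested genes, called at adjusted p under 0.05, no block). The script was tested on simulated data. FPKM values were not rescaled in the reported fit. The genes, lists and motifs were chosen with earlier results of these data known. Values per library are given, except for 1 subunit that is counted but not reported here by name, for core subunits, assembly factors, called genes, the 5 lowest and 5 highest, the LYR and twin CX9C lists and genes under the filter. Gene positions were from GENCODE release 44.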

Additional observations from a re-analysis of the deposited data

How the results depend on the processing

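The median log2 fold change of the subunits kept its sign in each alternative, from −0.13 to −0.05. The number of subunits called lower (2) was 1 with no filter on low values, 4 with median-ratio scaling, 10 with columns scaled to one sum, 9 after a GC and length trend was removed (chosen after seeing the data) and 11 with a replicate block, and ran from 0 to 4 when 1 library was left out. The one-sum, GC and block fits called 27.8%, 25% and 30.6% of subunits lower, against 13%, 16.3% and 14.8% of all genes, where the reported fit had 5.56% against 9.99%. The number called higher (0) was 2 with a replicate block and ran from 0 to 2 in the leave-outs. For assembly factors, the number lower (2) was 1 with no filter and ran from 1 to 2 in the leave-outs, and the number higher (1) was 2 with a replicate block. Their median of −0.02 ran from −0.15 without knockdown 2 to 0.0494 without knockdown 1. Over all genes, 2288 were called, 882 with no filter, 2687 with median-ratio scaling, 2676 with one sum, 3304 after GC and length removal, 3440 with a replicate block and 825 to 1925 in the leave-outs. The cause of these differences was not tested.

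The share of higher among all calls was 52.1%, and 62.7% without control 1, 43.2% without control 2, 46.7% with columns scaled to one sum, 48.4% with median-ratio scaling and 47.5% after GC and length were removed. The labels do not say whether same-numbered libraries share anything beyond the number. Their deviations correlated at 0.101 over the tested genes, which with 2 libraries a group cannot decide it. With 2 libraries a group and no counts, depth and counting error are unknown.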

Other observations

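NDUFA2, an N module subunit, had a minor transcript, NM_001185012, that did not pass the test. It stood at 2.56 and 2.57 FPKM in the control and 5.92 and 5.01 FPKM in the knockdown libraries (log2 fold change 0.85, limma adjusted p = 0.0963 over all transcripts). No test of shares was made, and it made up 3.15% and 3.49% of NDUFA2 in the controls and 7.35% and 6.42% in the knockdowns, while the gene as a whole differed by 0.03. NDUFA2 was chosen here after its values were seen.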
